A study of Mus musculus with 41 samples.

Results

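The clustered protocadherins are cell adhesion genes that lie in 3 neighbouring clusters, alpha, beta and gamma, on mouse chromosome 18. They were taken as every entry of the expression table whose symbol begins with Pcdha, Pcdhb, Pcdhga, Pcdhgb or Pcdhgc followed by the isoform's number, or with Pcdhac. This gave 58 of 24946 entries, with 14 in the alpha cluster, 22 in the beta cluster and 22 in the gamma cluster. The choice used names only and no measured value.

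Clustered protocadherins are found mostly on neurons, where each cell is known to express its own small set of isoforms and the proteins bind the same isoform on the facing membrane. This is known for giving a neuron an identity by which its own branches avoid each other, and for roles in dendrite growth and synapse formation; gamma protocadherins on astrocytes are known to take part in astrocyte shape as well. Each variable exon has its own promoter, and the choice among promoters is known to depend on DNA methylation, on the insulator protein CTCF and on cohesin, which join promoters to distant enhancers. The isoforms Pcdhac1, Pcdhac2, Pcdhgc3, Pcdhgc4 and Pcdhgc5 form a separate class, called C-type, most of which are made in many neurons rather than by a random choice.

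Polyadenylated RNA was sequenced from cortex, midbrain and cerebellum of male and female C57BL/6J mice aged 12 weeks. Conditional knockout mice (cKO) carried floxed Yy1 alleles and Cre recombinase under the promoter of the astrocyte gene Gfap, and floxed mice carried the floxed alleles without Cre. Yy1, a transcription factor with zinc fingers, acts as activator or repressor depending on the gene and is known to take part in joining enhancers to promoters. The comparisons used 5 cKO and 6 floxed libraries of cortex, 7 cKO and 7 floxed libraries of midbrain, and 7 cKO and 7 floxed libraries of cerebellum, each library from 1 animal, with the 3 regions taken from the same animals. No group carried Cre without floxed Yy1, so the loss of Yy1 cannot be told apart from effects of Cre, and the labels do not name which Gfap-Cre line was used. Whole tissue was sequenced, so fewer cells of a type and less RNA per cell cannot be told apart.

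All values are normalised reads per gene as deposited. The depth behind them, estimated from the spacing of the low values, ran from 6.85 to 70.4 M reads a library, and cKO cerebellum libraries (6.85 to 33.2 M) were shallower than floxed ones (18.6 to 70.4 M). Yy1, the targeted gene, had 499 to 683 normalised reads (median 556) in cKO cerebellum and 585 to 1348 (median 1139) in floxed cerebellum. It fell by 0.86 ± 0.15 (SE) on the log2 scale there, by 0.26 ± 0.07 in cortex and by 0.24 ± 0.06 in midbrain (limma, adjusted p = 0.00114, 0.0166 and 0.0180). The library labelled floxed cerebellum 6 goes against its label, with 585 reads of Yy1 and 25729 of Gfap, where the other 6 floxed cerebella had 881 to 1348 of Yy1 and 4241 to 4786 of Gfap. For cKO against floxed cerebellum, counts of members called are therefore given with and without it. Other cerebellum values, those of the floxed regions among them, include it unless stated. The cKO cerebellum libraries 4 and 7 stood lowest in the summed reads of each protocadherin cluster, and 7 also had the lowest estimated depth of all. That estimate is weak, since 64.7% of its low values were whole multiples of the value of 1 read. This share was 62.5% in floxed cerebellum 1 and 87.6% over all libraries. For Pcdhga4, Pcdhga10, Pcdhgb4 and Pcdhgb7, cKO cerebellum 4 and 7 stood highest among cKO cerebella. Of the region markers, the summed cerebellar granule and Purkinje cell markers were 182261 to 248909 in floxed cerebellum and 17091 to 25615 in floxed cortex. The summed serotonin and dopamine neuron markers did not separate the regions, with 1554 to 7429 in cKO cerebellum and 1266 to 3595 in cKO midbrain, and 492 to 4049 in floxed cerebellum and 3019 to 4785 in floxed midbrain. In 3 animals (floxed 5 and 6, cKO 7) Xist and Y-linked genes contradicted the sex label of every library, and labelled sex is a covariate of each test.

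The 3 clusters follow each other on the plus strand, the alpha cluster at chr18:36930285-37188897, the beta cluster at chr18:37264998-37521419 and the gamma cluster at chr18:37661775-37841873 (GRCm38.p6, RefSeq). Each alpha or gamma isoform joins 1 variable exon of its own to constant exons that all isoforms of its cluster share, whereas each beta gene is a single gene of its own. In the GENCODE vM21 models, a median of 53.4% of an alpha isoform's exon bases (48.6 to 54.9%) and 44.8% of a gamma isoform's (39.5 to 45.9%) lie in exons of other members. Among beta genes this overlap was 0 except in Pcdhb21 and Pcdhb22, where it reached 9.67%. The value of an alpha or gamma isoform thus rests on how the authors' counting divided shared reads, and the libraries do not mark strand. The further loci Gm37013, Gm38666 and Gm38667 read through from alpha to gamma exons; they carry other symbols and are not counted as members.

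In floxed tissue Pcdhgc5 and Pcdhgc3 had the highest level per kilobase in cortex and midbrain, and Pcdhgc3 alone in cerebellum. Per kilobase of exon, Pcdhgc5 had 1526 ± 144 normalised reads in floxed cortex (SD, n = 6), 904 ± 155 in floxed midbrain (SD, n = 7) and 195 ± 39.4 in floxed cerebellum (SD, n = 7). Pcdhgc3 had 1074 ± 202 in floxed cortex, 942 ± 108 in floxed midbrain and 1869 ± 334 in floxed cerebellum. Pcdhgc5 averaged above Pcdhgc3 in cortex, where floxed cortex 2 alone had the reverse order. Their spreads overlapped in midbrain, and in cerebellum Pcdhgc3 stood above Pcdhgc5 in every library.

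Pcdhac2 was the highest alpha isoform in each region, with 301 ± 49.9 reads per kilobase in floxed cortex, 262 ± 28.6 in floxed midbrain and 249 ± 86.6 in floxed cerebellum. Pcdhgc4 had 191 ± 40.5 per kilobase in floxed cortex, 229 ± 36.1 in floxed midbrain and 201 ± 25.9 in floxed cerebellum. Its mean ± SD overlapped that of Pcdhac2 in cerebellum and midbrain, and single libraries of both isoforms overlapped in cortex as well. The median over members per kilobase in floxed cortex was 41.6 for alpha, 32.2 for beta and 149 for gamma, and in floxed cerebellum it was 27.9, 28.6 and 124. Pcdha8 was lowest among the tested members in every floxed region, at 4.39 to 6.94 reads per kilobase. Pcdhb1 reached at most 27.4 normalised reads, was listed at 0 in 12 of 39 libraries, and was the only member not tested.

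**Figure D1:**
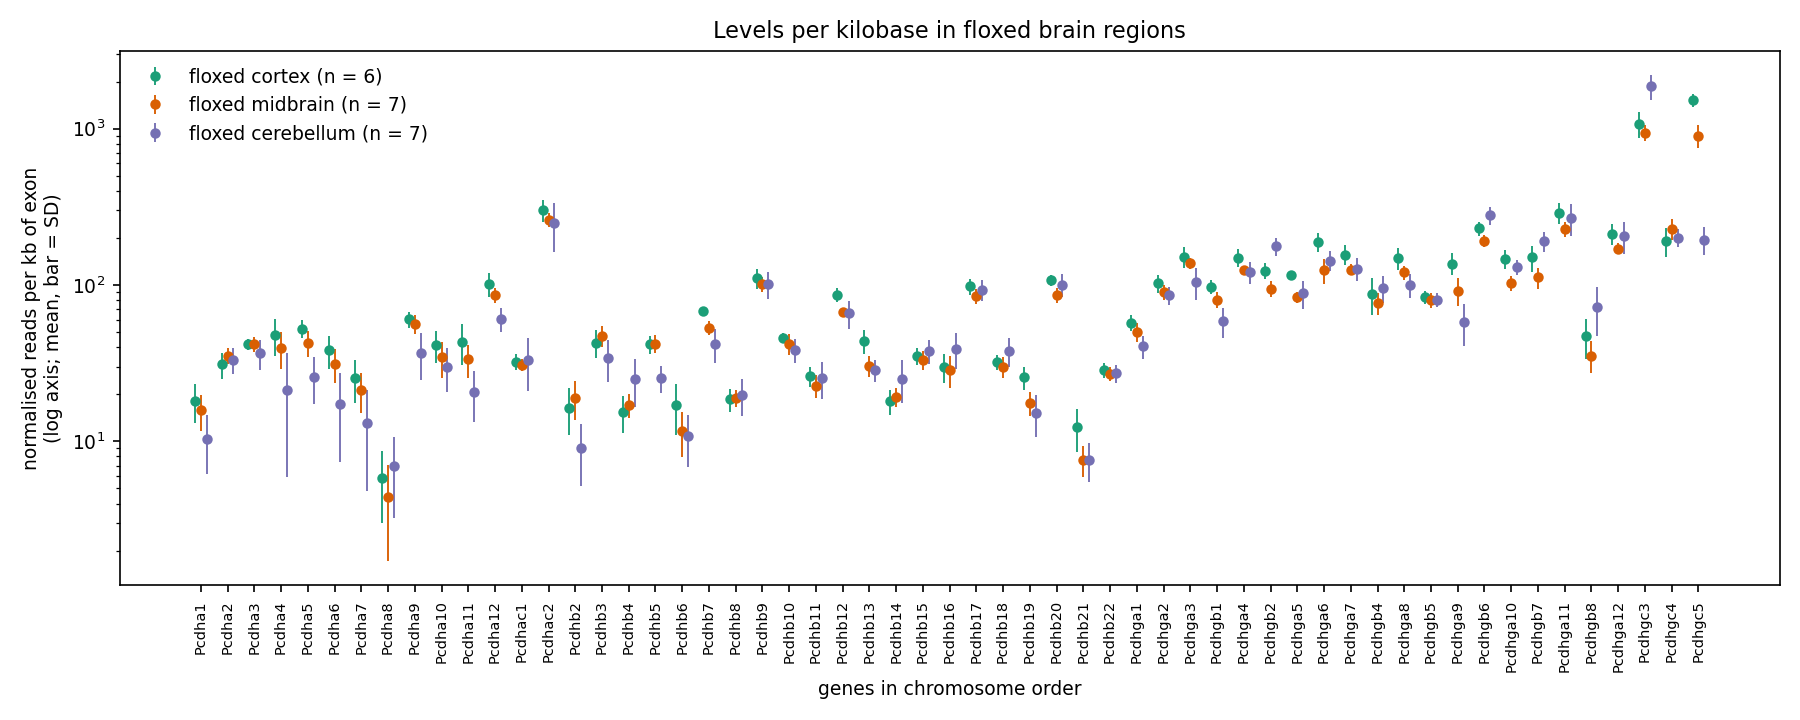
Normalised reads per kilobase of exon (log axis) of 57 clustered protocadherins in chromosome order in floxed cortex (n = 6), midbrain (n = 7) and cerebellum (n = 7); points are means and bars are SD. Pcdhgc5 is at 1526 in cortex and 195 in cerebellum, whereas Pcdhgc3 is at 1074 in cortex and 1869 in cerebellum.

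The comparison of floxed regions asks how isoform use differs across the brain without knockout. Each regional difference below is the log2 difference of normalised reads of 1 gene, so gene length plays no part. In floxed cerebellum against floxed cortex, 6 members were higher and 17 lower (limma, adjusted p under 0.05), where 22.4% of all 16659 genes tested were called higher and 40.1% lower. In floxed cerebellum against floxed midbrain, 7 were higher and 12 lower, with 23.4% and 39% of all genes. In floxed midbrain against floxed cortex, none was higher and 7 were lower, with 9.89% and 15.6% of all genes.

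The largest of these differences was that of Pcdhgc5. It had 768 to 1235 normalised reads (median 811) in floxed cerebellum, against 6257 to 8126 (median 7366) in floxed cortex and 2955 to 4946 (median 4556) in floxed midbrain. Its ranges did not overlap between cerebellum and either other region. The difference was -2.99 ± 0.14 (SE) against cortex and -2.21 ± 0.14 against midbrain (limma, adjusted p = 4.18e-20 and 1.28e-16), and it was also lower in floxed midbrain than in floxed cortex by -0.78 ± 0.14 (adjusted p = 8.17e-05).

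Pcdhgc3 went the other way. It had 6678 to 10903 reads (median 9069) in floxed cerebellum, 3767 to 6377 (median 4802) in floxed cortex and 3903 to 5367 (median 4162) in floxed midbrain, so that its cerebellar libraries lay above all others. The differences were 0.81 ± 0.15 against cortex and 0.98 ± 0.14 against midbrain (limma, adjusted p = 1.08e-05 and 2.01e-07). As shares of all gamma reads, Pcdhgc3 made up 39.2% ± 2.79 in floxed cerebellum and 19.3% ± 3.45 in floxed cortex, and Pcdhgc5 made up 4.26% ± 1.33 in floxed cerebellum and 27.8% ± 2.97 in floxed cortex (SD, n = 7 and 6).

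Most other members higher in floxed cerebellum were gamma B genes. Pcdhgb2, Pcdhgb6, Pcdhgb7 and Pcdhgb8 were higher than in floxed cortex by 0.29 to 0.57 and than in floxed midbrain by 0.53 to 0.99 on the log2 scale, while Pcdhgb1 was lower than in both, by -0.75 and -0.48. Pcdhgb8 is annotated as a polymorphic pseudogene. Pcdhb4 was also higher than in both, by 0.68 against floxed cortex (limma, adjusted p = 0.00899) and by 0.49 against floxed midbrain (limma, adjusted p = 0.0494). The call against midbrain was lost in 28 of 49 alternative fits. Pcdhga10 was higher than in floxed midbrain by 0.33 and completes these members.

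Among members lower in floxed cerebellum than in floxed cortex were Pcdhga9 (-1.25), Pcdha11 (-1.08), Pcdha5 (-1.07), Pcdha1 (-0.90) and Pcdhb2 (-0.86). Against floxed midbrain the called members with the most negative values after Pcdhgc5 were Pcdhb2 (-1.13), Pcdha5 (-0.77), Pcdhb5 (-0.74), Pcdha1 (-0.72) and Pcdha11 (-0.71). Alpha isoforms that were not called reached -1.62. In floxed midbrain against floxed cortex, Pcdhga6 (-0.61), Pcdhga9 (-0.57), Pcdhb19 (-0.54), Pcdhga10 (-0.50) and Pcdhgb7 (-0.40) were lower besides Pcdhgc5. The directional split depends on scaling, since scaling to library totals put the median of all genes in cerebellum against cortex at 0.14, where it is -0.14 as deposited. It gave 11 members higher and 9 lower against cortex and 16 higher and 7 lower against midbrain, and median-of-ratios scaling gave 8 and 13, and 14 and 9. Because all genes shift with the scaling, these counts are not a result about the members alone. With the animal as a block, which the labels justify, the count in midbrain against cortex was 11. It was 11 without cKO cerebellum 4 or 7 and 4 without floxed midbrain 6. Over all genes, leaving out 1 library gave 21.6% to 28.8% called in either direction.

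The comparison of cKO with floxed tissue asks how protocadherin expression differs when Yy1 is deleted with Gfap-Cre. In cerebellum, 38 of 57 tested members fell in cKO and none rose, where 19.6% of all 15334 genes tested fell and 19.4% rose (limma, adjusted p under 0.05). All 21 tested beta genes fell, with 7 of 14 alpha and 10 of 22 gamma isoforms. The median log2 fold change was -0.89 for beta, -0.80 for alpha and -0.50 for gamma, against -0.01 over all genes. Whether the clusters differ from each other was not tested, and 1 was added to each value before taking log2. This understates folds of low genes, except that a library listed at 0, as for Pcdhac1, Pcdhb8 and Pcdha4, can take the fitted fold beyond the ratio of the group means.

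Scaling to library totals gave 33 members lower and 1 higher, and median-of-ratios scaling gave 39 lower. The share of all genes called under these scalings is not given here, so these counts are not a result about the members alone. Summed over each cluster, the alpha isoforms had 1028 to 2125 normalised reads (median 1669) in cKO cerebellum and 1927 to 4171 (median 3637) in floxed cerebellum. The beta genes had 1102 to 2471 (median 2017) in cKO and 2305 to 3886 (median 3612) in floxed cerebellum. The gamma isoforms had 12818 to 17255 (median 16428) in cKO and 17190 to 26067 (median 22307) in floxed cerebellum. The mean of cKO was 48.6% of the floxed mean for alpha, 55.7% for beta and 70.7% for gamma. The lowest floxed library in all 3 was the one labelled floxed cerebellum 6, and above it no other floxed library overlapped the cKO range. Without that library and cKO cerebellum 4 and 7, the shares were 51.9%, 61.5% and 71.9%.

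**Figure D2:**
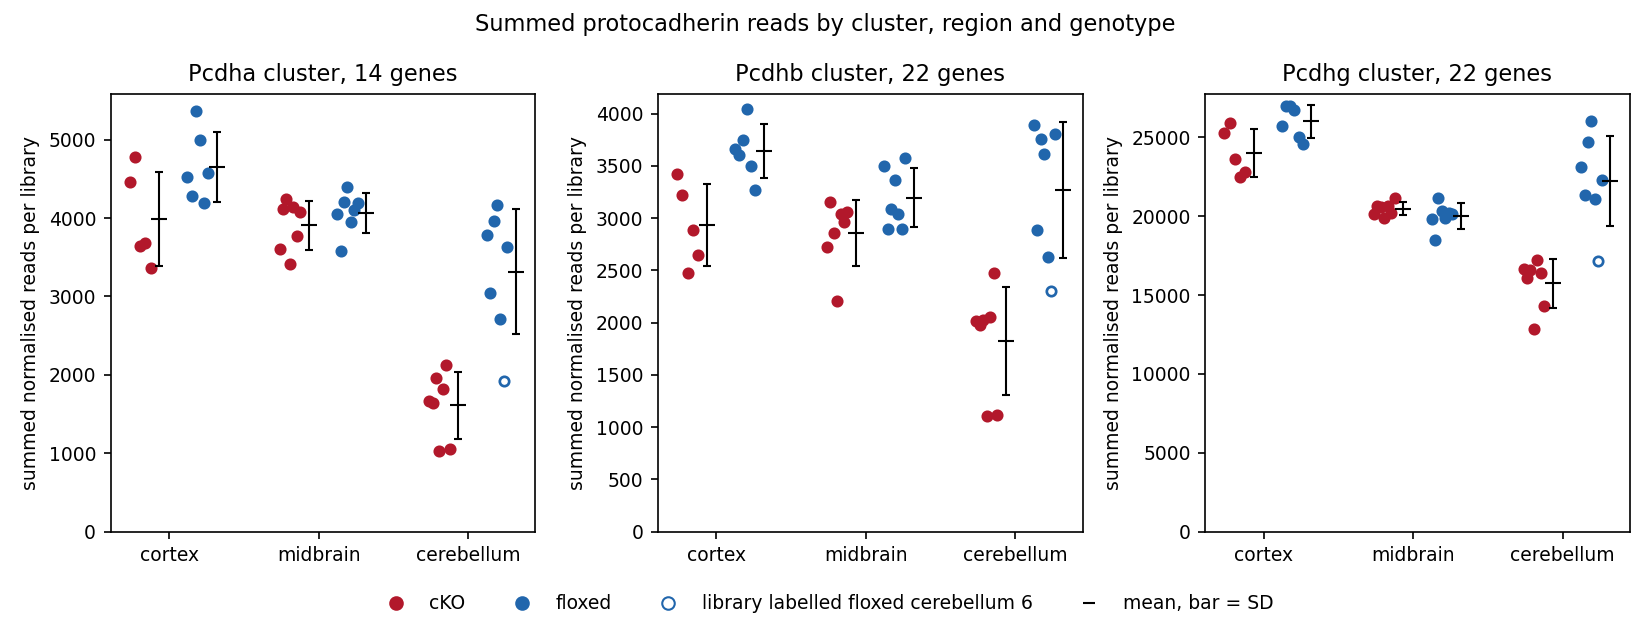
Summed normalised reads per library of the alpha, beta and gamma genes in cortex, midbrain and cerebellum, cKO (red) left of floxed (blue) in each region; bars are mean and SD, and the open circle is the library labelled floxed cerebellum 6. In cerebellum the cKO libraries lie at 1028 to 2125 (alpha), 1102 to 2471 (beta) and 12818 to 17255 (gamma), below every floxed library except the open circle.

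Of the C-type isoforms, 4 of 5 fell in cKO cerebellum. Pcdhac2, the isoform that accounts for the largest share of alpha reads, had 302 to 774 reads (median 622) in cKO and 759 to 2058 (median 1534) in floxed cerebellum. Only the library labelled floxed cerebellum 6 lay within the cKO range. Pcdhac2 fell by 1.34 ± 0.24 on the log2 scale (limma, adjusted p = 0.00117).

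Pcdhac1 had 0 to 108 reads (median 60.7) in cKO and 58.1 to 241 (median 207) in floxed cerebellum, and was listed at 0 in cKO cerebellum 7. Its fitted change was -2.15 ± 0.82 (limma, adjusted p = 0.0498), a call lost in 16 of 28 alternatives; without cKO cerebellum 4 and 7 it was -1.11 (limma, adjusted p = 0.0234).

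Pcdhgc4, which in mice is known to be needed for the survival of many interneurons, had 419 to 862 reads (median 513) in cKO and 770.4 to 1144 (median 1007) in floxed cerebellum. Only cKO cerebellum 6 lay above the library labelled floxed cerebellum 6, and all cKO libraries lay below the other 6 floxed ones. Pcdhgc4 fell by 0.89 ± 0.14 (limma, adjusted p = 0.000813).

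Pcdhgc3, which in mice has been linked to Wnt signalling and dendrite branching in cortical neurons, had 2601 to 6178 reads (median 5518) in cKO and 6678 to 10903 (median 9069) in floxed cerebellum. Every cKO library was below every floxed library. It fell by 0.91 ± 0.20 (limma, adjusted p = 0.00317), and its share of gamma reads was 29.97% ± 6.59 in cKO and 39.2% ± 2.79 in floxed cerebellum (SD, n = 7 each).

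Pcdhgc5 did not pass the test in cerebellum. It had 579 to 1552 reads (median 915) in cKO and 768 to 1235 (median 811) in floxed cerebellum, with overlapping groups. The difference was 0.08 ± 0.19 (95% interval -0.33 to 0.49; limma, adjusted p = 0.751).

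**Figure D3:**
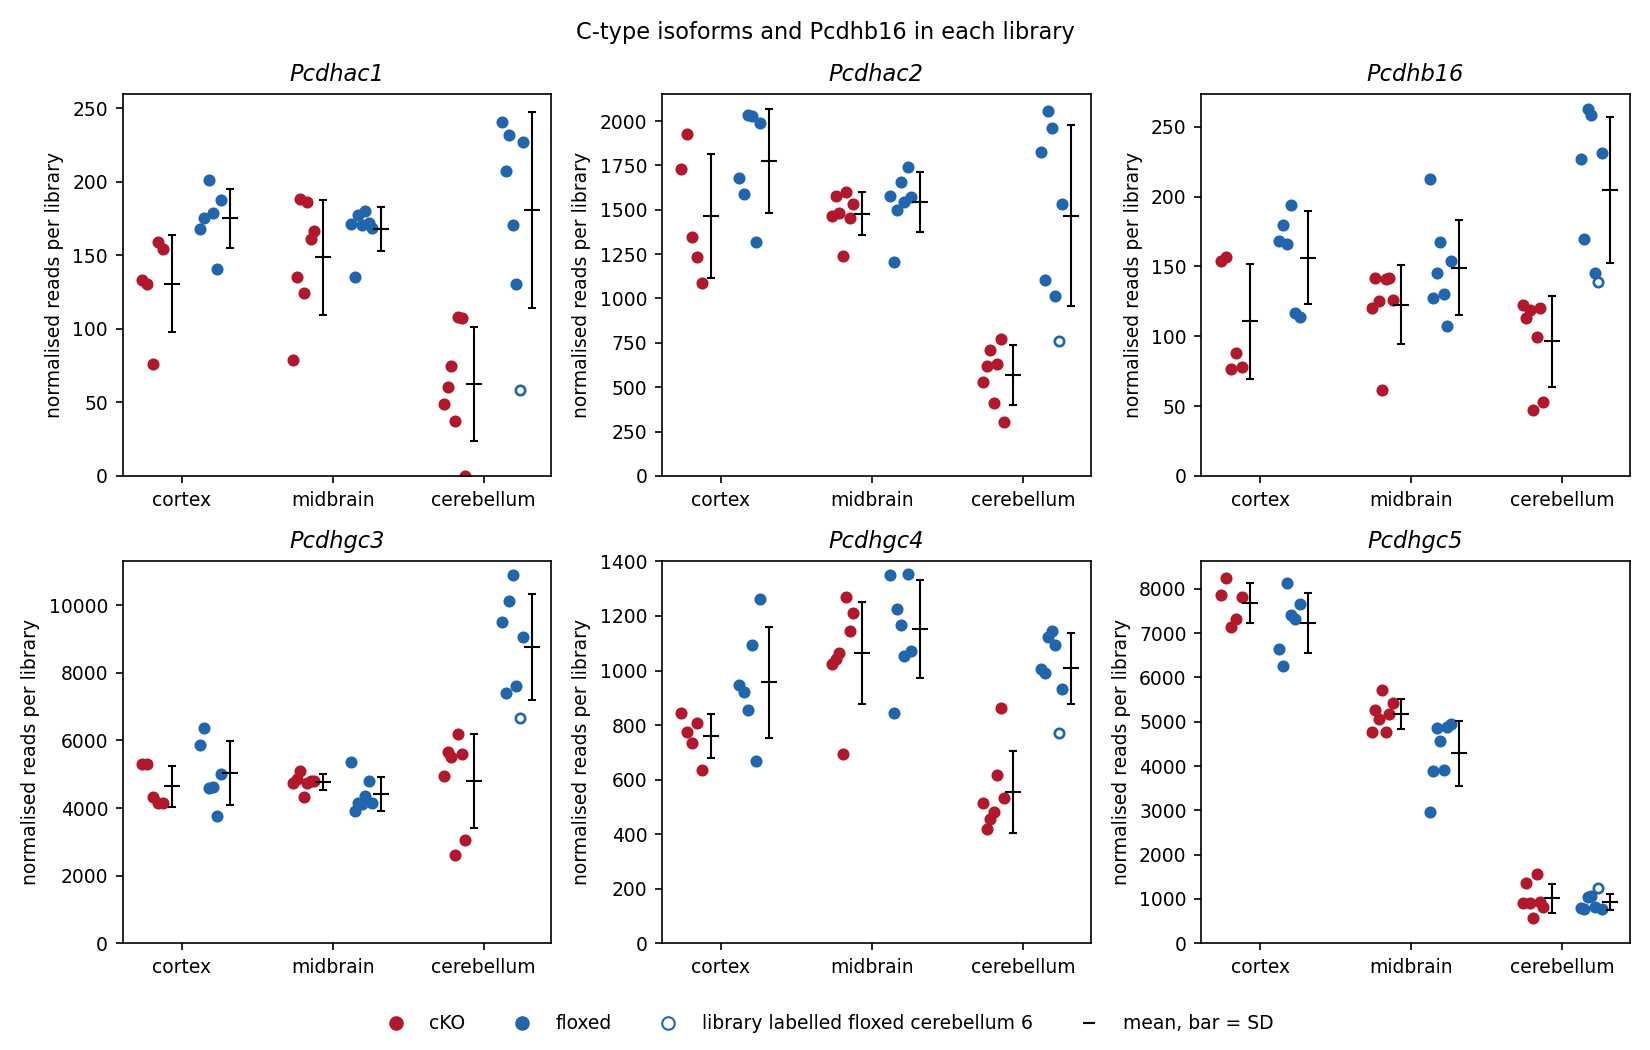
Normalised reads per library of the C-type isoforms and of Pcdhb16 in the 3 regions, cKO (red) left of floxed (blue); bars are mean and SD, and the open circle is the library labelled floxed cerebellum 6. Pcdhgc3 and Pcdhb16 in cerebellum have every cKO library below every floxed one, and Pcdhgc5 has overlapping groups there (579 to 1552 in cKO, 768 to 1235 in floxed).

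The beta genes, single-exon genes whose products bind like to like at contacts between neurons, fell in cKO cerebellum, with log2 fold changes from -2.01 to -0.62. Pcdhb16 had 47.5 to 122 reads (median 113) in cKO and 139 to 263 (median 227) in floxed cerebellum, with no overlap, and fell by 1.13 ± 0.25 (limma, adjusted p = 0.00339). Pcdhb14 had 38.5 to 123 (median 114) in cKO and 117 to 286 (median 254) in floxed cerebellum, and fell by 1.24 ± 0.28 (limma, adjusted p = 0.00432).

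Only the library labelled floxed cerebellum 6 overlapped the cKO range of Pcdhb14. Pcdhb15 had 50.9 to 83.0 (median 65.4) in cKO and 72.6 to 124 (median 112) in floxed cerebellum, and fell by 0.70 ± 0.16 (limma, adjusted p = 0.00447). The beta genes with the most reads, Pcdhb17 and Pcdhb20, fell by 0.80 ± 0.21 and 0.62 ± 0.17 (limma, adjusted p = 0.00828 and 0.0107), and both calls were lost with depth as a covariate. The most negative beta value was that of Pcdhb8, -2.01 ± 0.67, a low gene listed at 0 in 1 cKO library that had 0 to 57.3 reads in cKO and 35.8 to 93.6 in floxed cerebellum.

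Among alpha isoforms other than the C-type, 5 of 12 fell, namely Pcdha2, Pcdha3, Pcdha4, Pcdha9 and Pcdha12. Pcdha12, the next most abundant alpha isoform after Pcdhac2, had 75.3 to 268 reads (median 150.5) in cKO and 227 to 402 (median 327) in floxed cerebellum, and fell by 1.06 ± 0.26 (limma, adjusted p = 0.00664). Pcdha4 was listed at 0 in 3 of 7 cKO libraries and had up to 76.4 reads in the others, against 20.1 to 235 in floxed cerebellum. The 7 alpha isoforms that did not pass ranged from -1.28 to -0.24. Over all 39 libraries, 10 alpha, 15 beta and no gamma values were listed at 0, of which Pcdha4 and Pcdha6 gave 3 each and Pcdhb1 gave 12. Without counts an exact 0 can be a failed estimate, so no fold is given for Pcdha4. Of the read-through loci, Gm38667 was listed at 0 in 6 of 7 cKO cerebella and at 38.5 to 153 in all 7 floxed cerebella, while Gm37013 and Gm38666 did not differ beyond the spread between libraries (limma, adjusted p = 0.679 and 0.304).

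Within the gamma cluster 7 of 12 gamma A and 1 of 7 gamma B isoforms fell. Pcdhga2 had 142 to 290 reads (median 237) in cKO and 315 to 472 (median 409.9) in floxed cerebellum, with no overlap, and fell by 0.81 ± 0.16 (limma, adjusted p = 0.00185). Pcdhga11, the most abundant gamma A isoform, had 639 to 928 reads (median 805) in cKO and 657 to 1607 (median 1310.1) in floxed cerebellum, and fell by 0.67 ± 0.15 (limma, adjusted p = 0.00372). The only gamma B isoform to fall was Pcdhgb1, by 0.57 ± 0.16 (limma, adjusted p = 0.0150); the other 6 ranged from -0.30 to 0.56 and did not pass. Pcdhgb4 had the most positive value of all members, 0.56 ± 0.24 (95% interval 0.04 to 1.07; limma, adjusted p = 0.0776), with 370 to 1362 reads in cKO and 301 to 547 in floxed cerebellum, with overlapping groups. Its highest libraries were cKO cerebellum 4 and 7, at 967 and 1362 reads, and the other cKO libraries had 370.4 to 655. For Pcdhga4, Pcdhga10 and Pcdhgb7, which did not pass, cKO cerebellum 4 and 7 were also the highest cKO libraries. In cKO cerebellum, Pcdhgb4, Pcdhga4, Pcdhga10, Pcdhgb7, Pcdhb8, Pcdha4, Pcdha6, Pcdha7, Pcdhgb1 and the read-through loci were named after their values were seen. The difference between these classes was not tested.

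Every cKO cerebellum library lay below every floxed one for 4 members, Pcdhb16, Pcdhb22, Pcdhga2 and Pcdhgc3, where 3.7% of all genes did so. Without the library labelled floxed cerebellum 6 this held for 21 of 57 members and 10.9% of all genes. The count of members that fell was 42 without that library, 34 without cKO cerebellum 4 and 7, and 42 without all 3, and it was 20 with estimated depth as a covariate. In these fits 41.5%, 38.8%, 46.2% and 30.5% of all genes were called in either direction. Pcdhac2, Pcdhgc3, Pcdhgc4, Pcdha12, Pcdhb14, Pcdhb15, Pcdhb16, Pcdhga2 and Pcdhga11 passed in each of the 28 alternatives, that one and leaving out each library included.

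**Figure D4:**
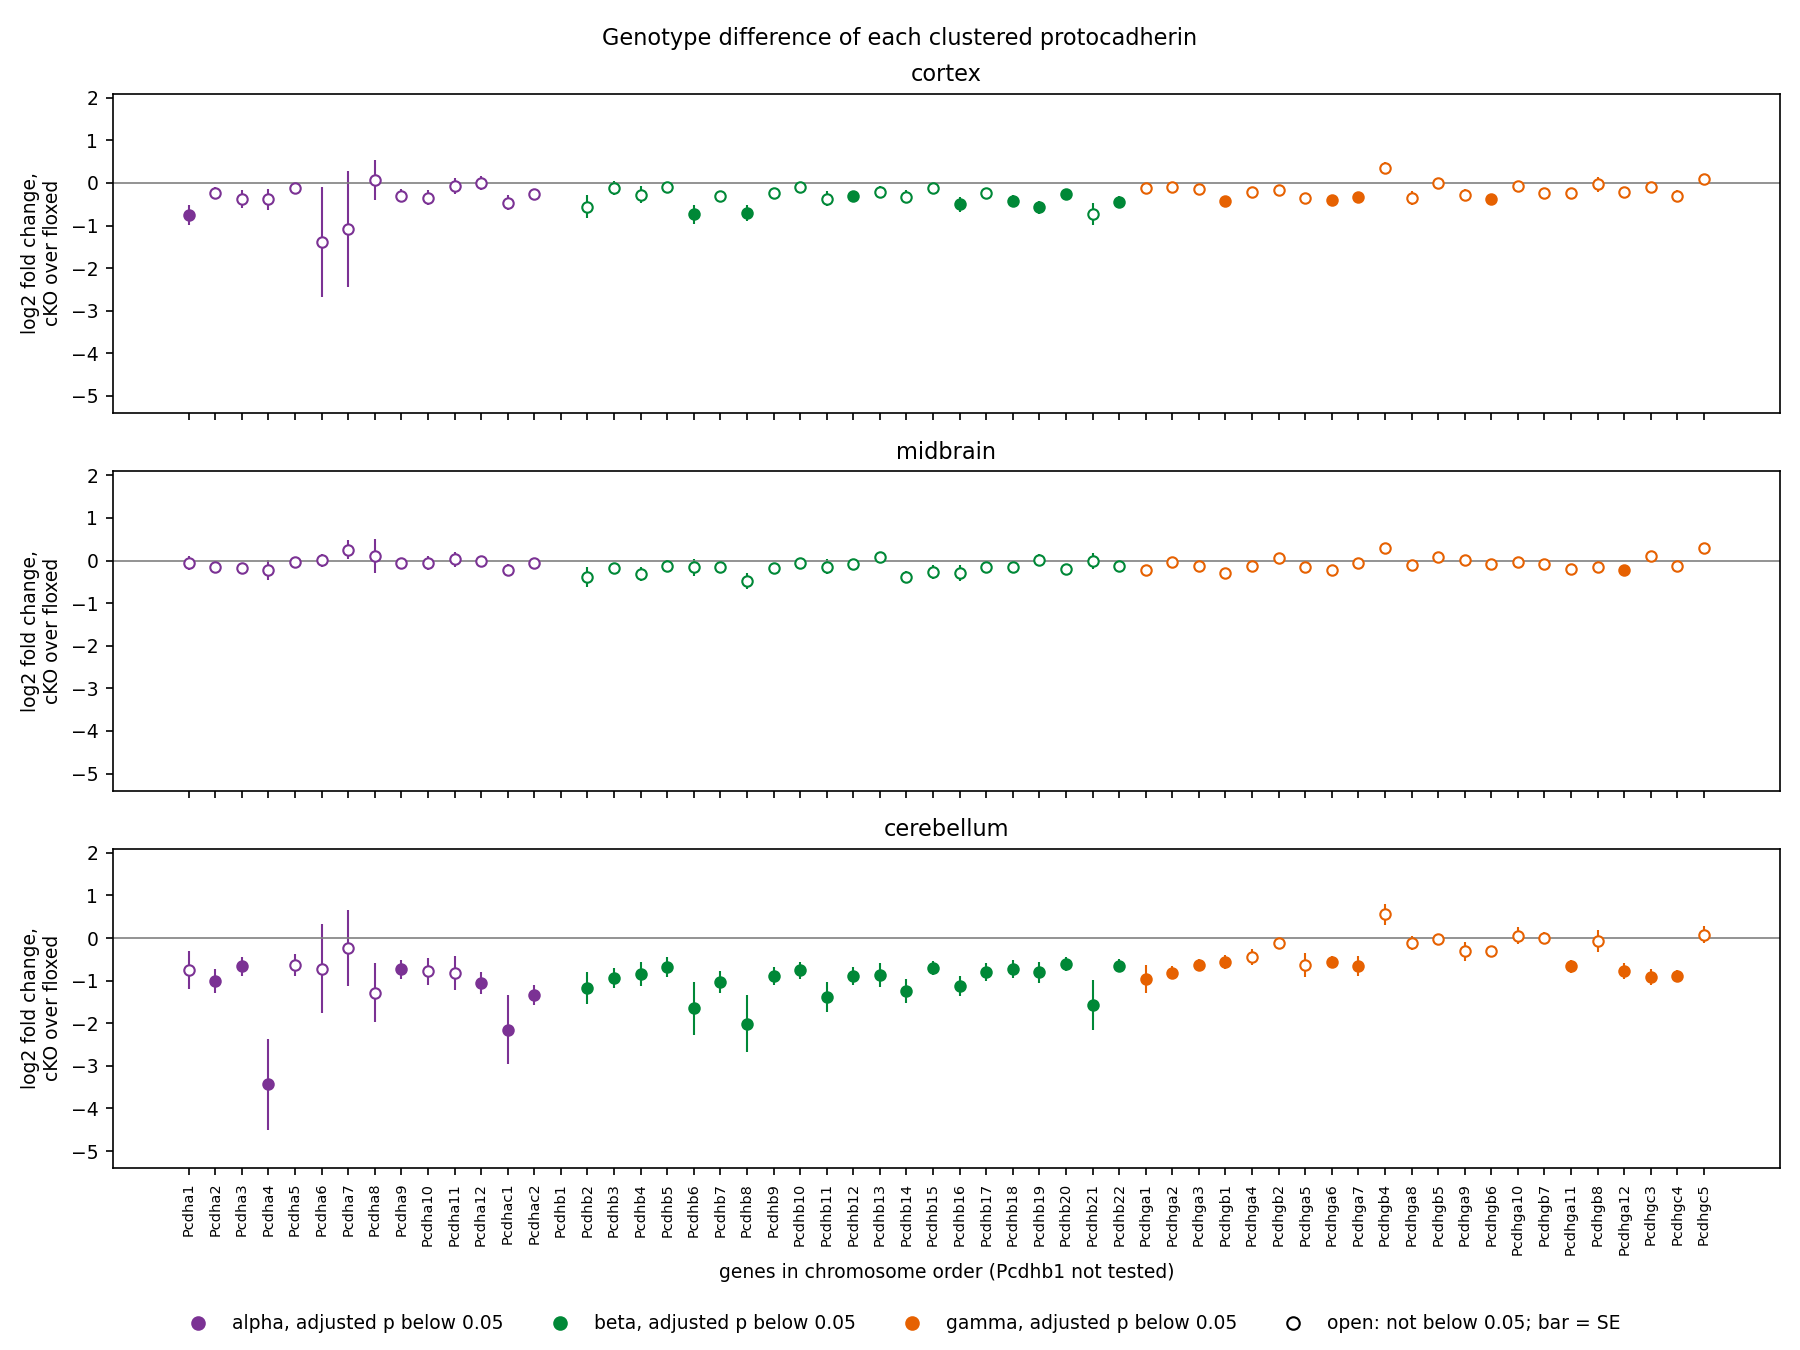
Log2 fold change of cKO over floxed (points) with SE (bars) for each clustered protocadherin in chromosome order, with a panel for each region, coloured by cluster; filled points have an adjusted p under 0.05 (limma). Filled points number 13 in cortex, 1 in midbrain and 38 in cerebellum, all below 0, and all 21 tested beta genes are filled in cerebellum.

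Markers of other cells moved in the same libraries. The summed neuron markers were 100460 to 168879 (median 155833) in cKO and 157008 to 178915 (median 170985) in floxed cerebellum, and 6 of 14 fell and 1 rose. Of the astrocyte markers 5 of 12 fell and 1, Gfap, rose, with a median of -0.59 and sums of 129222 to 194282 in cKO and 150483 to 187090 in floxed cerebellum. Of 5 cortical excitatory neuron markers 3 fell. The summed granule and Purkinje cell markers were 96818 to 201931 in cKO and 182261 to 248909 in floxed cerebellum, and 4 of 8 fell. The neuron sum and the granule and Purkinje cell sum were lowest in cKO cerebellum 4. All 10 microglia markers and all 6 meningeal fibroblast markers rose, with microglia sums of 11249 to 30495 in cKO and 3123 to 13761 in floxed cerebellum, and the highest floxed value was again in the library labelled floxed cerebellum 6. The summed oligodendrocyte markers were 142533 to 527761 in cKO and 123543 to 204365 in floxed cerebellum, and 2 of 10 fell. The summed choroid plexus markers were 1254 to 287730 in cKO and 1293 to 70188 in floxed cerebellum, with no call among 7. The part of these cells in the protocadherin result was not tested.

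In cortex the change was smaller. Of 57 members 13 fell in cKO and none rose, where 12.9% of all 15731 genes tested fell and 10.5% rose (limma, adjusted p under 0.05). The only floxed cortex libraries labelled female, 5 and 6, have Xist and Y-linked genes that contradict the label, unlike cKO cortex 5 and 6. Sex and genotype are thus partly confounded in cortex, and the covariate carries these labels. Counts under other sex settings are given below. The fallen members were 8 of 21 beta genes, 4 of 22 gamma isoforms and 1 of 14 alpha isoforms, and 54 of 57 members had a negative value. The median log2 fold change was -0.27 over members and -0.01 over all genes.

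The lowest p in cortex was that of Pcdhgb6. It had 913, 869, 1018, 584 and 761 reads in cKO cortex and 943 to 1195 (median 1085) in floxed cortex, and fell by 0.37 ± 0.09 (limma, adjusted p = 0.0135). Of the cKO libraries, 1 lay within the floxed range. The call was lost with no sex covariate, with Xist in place of sex and without the sex-conflict libraries (adjusted p up to 0.231 in limma), and the fold was as small as -0.21.

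Pcdhb8 had 56.3, 34.5, 36.7, 30.4 and 39.8 reads in cKO cortex and 51.3 to 80.1 (median 63.8) in floxed cortex, and fell by 0.70 ± 0.18 (limma, adjusted p = 0.0190). Pcdhb19 had 159, 155, 88.2, 93.1 and 121 reads in cKO cortex and 145 to 217 (median 192) in floxed cortex, and fell by 0.57 ± 0.15 (limma, adjusted p = 0.0197). In both, 1 or 2 cKO libraries overlapped the floxed range.

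Pcdhb22, Pcdhgb1, Pcdhb12 and Pcdhga7 fell by 0.44, 0.42, 0.31 and 0.32 (limma, adjusted p = 0.0253, 0.0200, 0.0259 and 0.0347), and these calls were lost in 5, 4, 10 and 13 of 23 alternatives. The only alpha isoform to fall was Pcdha1, with 58.9, 46.96, 37.3, 83.1 and 60.4 reads in cKO cortex and 56.2 to 133 (median 98.4) in floxed cortex, by 0.76 ± 0.24 (limma, adjusted p = 0.0354). Of the beta genes with the most reads, Pcdhb20 fell by 0.25 ± 0.08 (limma, adjusted p = 0.0381) and Pcdhb17, at -0.24 ± 0.10, did not pass. The calls of Pcdha1 and Pcdhb20 were lost in 10 and 14 of 23 alternatives, and those of Pcdhb8 and Pcdhb19 in 5 and 4.

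No C-type isoform passed the test in cortex. Pcdhgc5 was at 0.09 ± 0.07 (95% interval -0.07 to 0.25), Pcdhgc3 at -0.09 ± 0.10 (-0.31 to 0.14), Pcdhgc4 at -0.31 ± 0.14 (-0.60 to -0.01), Pcdhac2 at -0.27 ± 0.13 (-0.55 to 0.01) and Pcdhac1 at -0.47 ± 0.17 (-0.84 to -0.09), with limma adjusted p from 0.0687 to 0.570. The number of members called in either direction was 4, 7 or 8 without floxed cortex 4, 3 or 2, 5 or 6 without cKO cortex 4 or 6, 4 with no sex covariate, 2 with Xist in place of sex, 8 without the sex-conflict libraries and 2 in the fit of all 6 groups. Over all genes 23.5% were called in either direction with all libraries, 15.9% to 23.0% on leaving out 1 library, 13.0% with no sex covariate, 10.3% with Xist, 19.1% without the sex-conflict libraries and 13.8% in the fit of all 6 groups. No member had every cKO library below every floxed one, where 3.01% of all genes did. In cortex 8 of 10 microglia markers rose and 1 fell, and 5 of 6 meningeal fibroblast markers rose. Of the oligodendrocyte markers 5 of 10 fell. Of the astrocyte markers 4 of 12 fell and 1 rose, and of the neuron markers 4 of 14 fell and 2 rose. The part of these cells in the result was not tested.

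In midbrain 1 member fell and none rose, where 7.61% of all 15683 genes tested fell and 8.48% rose (limma, adjusted p under 0.05). Unadjusted p in limma was under 0.05 for 8 members. Every gene called at the adjusted threshold also meets this looser one, so the 8 alone are not a result about the members. The member that fell was Pcdhga12. It had 629 to 831 reads (median 741) in cKO and 784 to 972 (median 838) in floxed midbrain and fell by 0.22 ± 0.07 (limma, adjusted p = 0.0308). The groups overlapped, the call was lost in 8 of 26 alternatives, and leaving out 1 library gave between 0 (floxed midbrain 4) and 5 (floxed midbrain 6) calls in either direction. The median over members was -0.12, against -0.01 over all genes.

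Of the C-type isoforms, Pcdhgc5 had 4766 to 5723 reads (median 5166) in cKO and 2955 to 4946 (median 4556) in floxed midbrain. Its difference of 0.29 ± 0.10 did not pass (95% interval 0.08 to 0.49; limma, adjusted p = 0.0525), and it passed in 6 of 26 alternatives. Pcdhgc3 was at 0.12 ± 0.06, Pcdhgc4 at -0.12 ± 0.12, Pcdhac2 at -0.06 ± 0.07 and Pcdhac1 at -0.22 ± 0.15, with adjusted p from 0.225 to 0.613 in limma. No member had every cKO library below every floxed one, where 1.84% of all genes did. In midbrain 7 of 10 microglia markers rose and 1 fell, and of 14 neuron markers 2 rose and 2 fell. Of the oligodendrocyte markers 5 of 10 fell, as did 7 of 10 endothelial and mural and 6 of 7 choroid plexus markers. Of the serotonin and dopamine neuron markers 6 of 7 fell, and of the astrocyte markers 6 of 12 fell and 1 rose. Their part in the result was not tested.

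**Figure D5:**
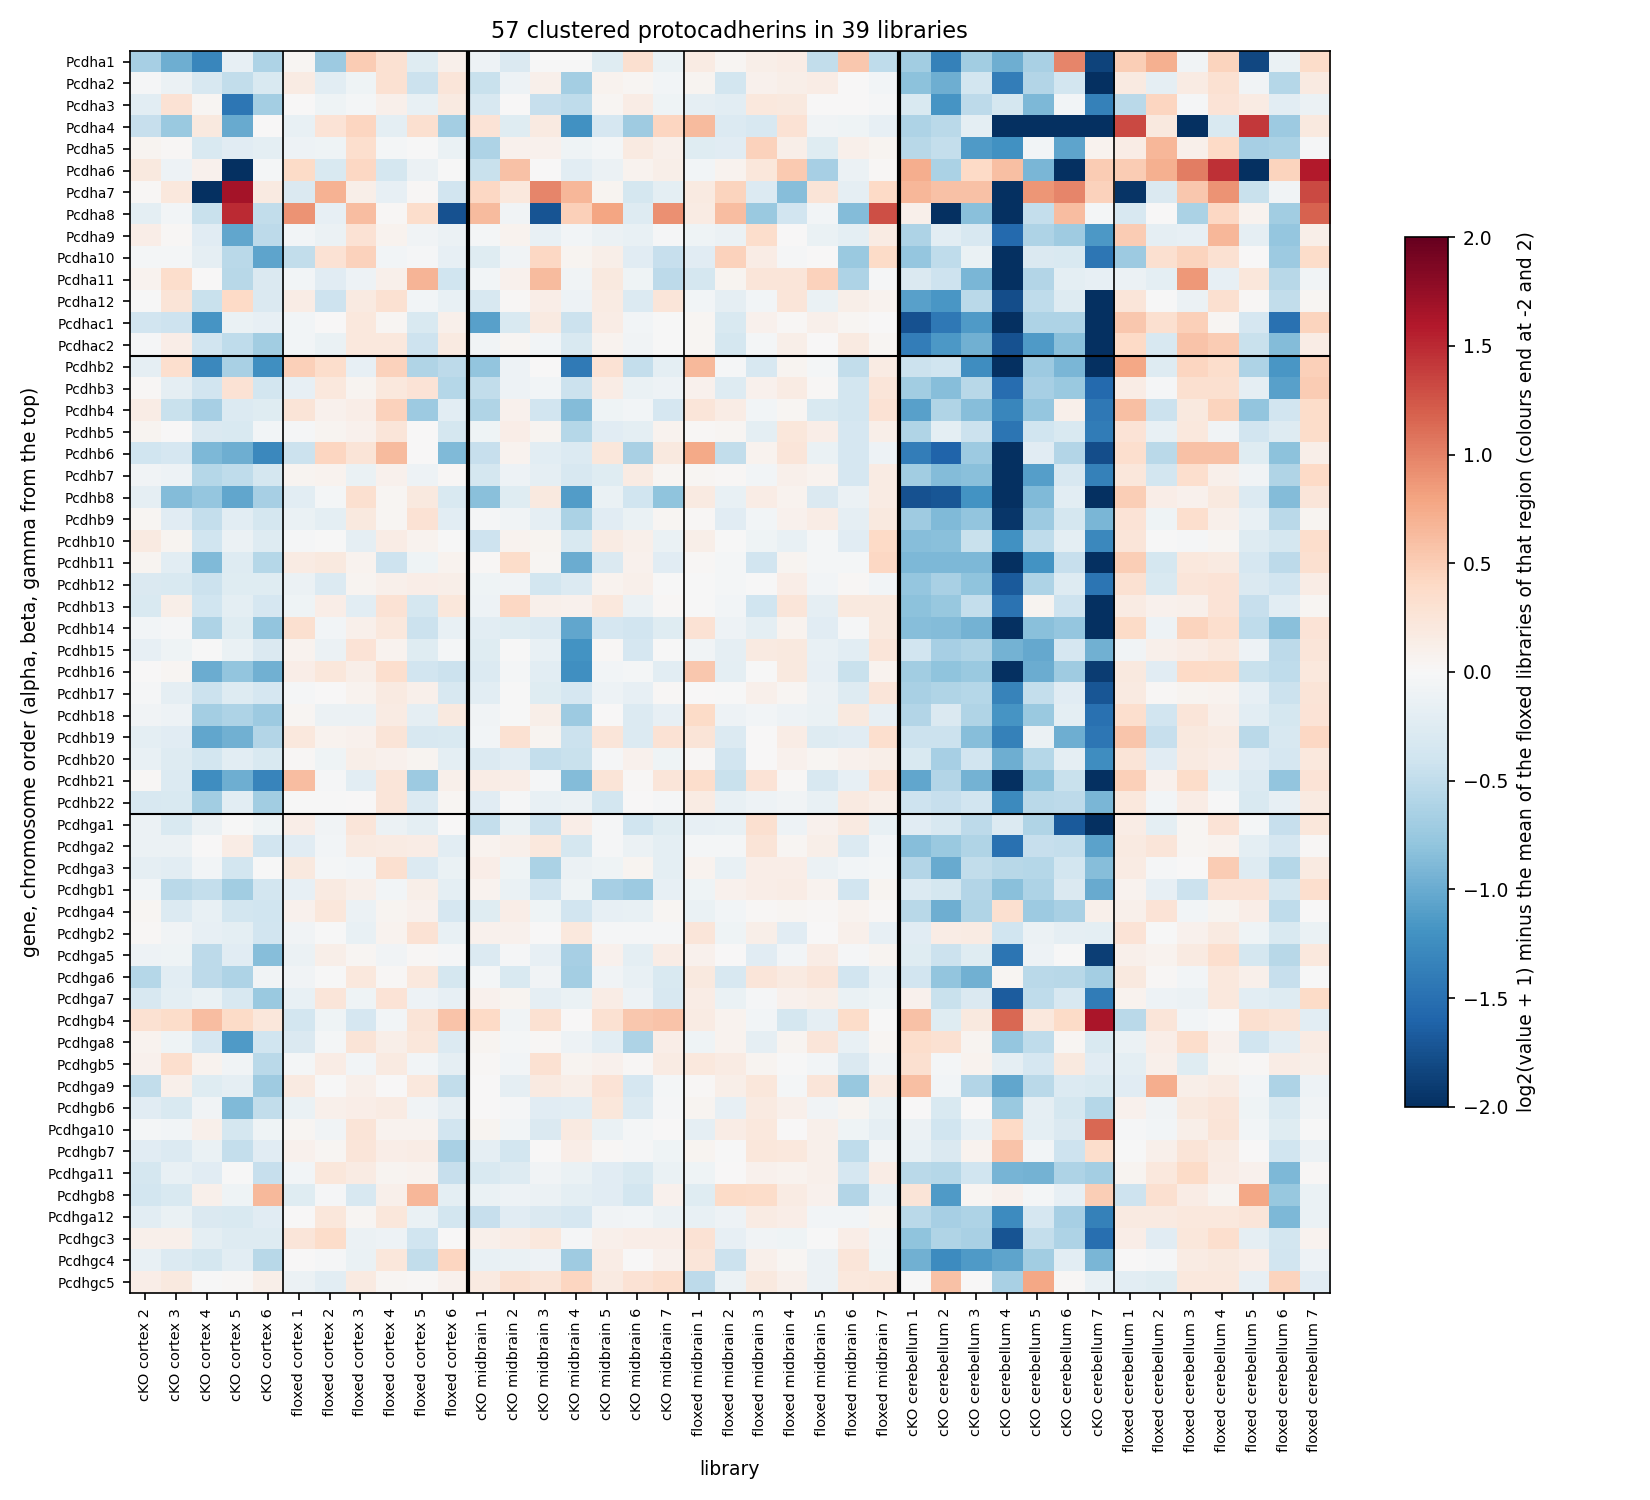
Log2(value + 1) of 57 clustered protocadherins (rows, chromosome order) in 39 libraries (columns, cKO left of floxed in each region), minus the mean of the floxed libraries of the same region; blue is lower and red is higher. The cKO cerebellum columns are mostly blue in the alpha and beta rows, most of all libraries 4 and 7. Several alpha rows, such as Pcdha6 and Pcdha7, hold both colours there, and the gamma B rows are mixed.

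The difference of the cKO effect between regions was tested directly in 1 fit of all 6 groups. In cerebellum minus midbrain, 24 members had a more negative effect in cerebellum and none a more positive one, where 12% of all 16659 genes did the first and 10.4% the second. These were 13 of 21 beta, 5 of 14 alpha and 6 of 22 gamma members. The leading ones were Pcdhgc3 (-1.03 ± 0.20), Pcdhac2 (-1.28 ± 0.25), Pcdhga2 (-0.77 ± 0.17) and Pcdhgc4 (-0.77 ± 0.19), with limma adjusted p of 0.000379, 0.000401, 0.00155 and 0.00435. Leaving out floxed midbrain 2, floxed cerebellum 1, 4 or 7, or cKO cerebellum 4 alone gave 15. Over all genes, leaving out 1 library gave 19.0% to 28.8% called in either direction.

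In cerebellum minus cortex, 7 members had a more negative effect in cerebellum and none a more positive one, where 8.09% of all genes did the first and 6.4% the second. They were led by Pcdhac2 (-1.06 ± 0.27), Pcdhga2 (-0.73 ± 0.18), Pcdhgc3 (-0.82 ± 0.21) and Pcdha12 (-1.04 ± 0.29), with limma adjusted p of 0.00659, 0.00669, 0.00895 and 0.0126. The count was 16 with the animal as a block, 18 without the library labelled floxed cerebellum 6, 16 or 11 without cKO cerebellum 6 or 5, and 4 without cKO cortex 2 or 3, floxed cerebellum 1, 4 or 7, or cKO cerebellum 4 or 7. Over all genes, leaving out 1 library gave 11.5% to 20.1% called in either direction. In midbrain minus cortex no member passed the test in limma, where 0% and 0.006% of all genes were called higher and lower. Unadjusted p was under 0.05 for 1 member, and the share of all genes at that looser threshold is not given here. These comparisons share libraries and are not independent.

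Within groups, libraries differed most in the alpha cluster. The median SD of log2(value + 1) over members was 0.53 for alpha, 0.37 for beta and 0.26 for gamma in floxed cerebellum, and 0.82, 0.53 and 0.40 in cKO cerebellum. In floxed midbrain it was 0.30, 0.20 and 0.17. Level, depth and shared exons differ between the clusters as well, and their part in this order was not tested.

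Genes that work with the protocadherins were also measured, and their counts stand beside 19.6%, 12.9% and 7.61% of all genes called lower in cKO cerebellum, cortex and midbrain, and 19.4%, 10.5% and 8.48% called higher. Of 14 genes for CTCF, cohesin and its loaders and regulators, 5 fell in cKO cerebellum, 5 in cortex and 2 in midbrain, and none rose. In cerebellum the lowest p were those of Hdac8 (-0.75), which deacetylates cohesin, Stag2 (-0.52), a cohesin subunit, and Pds5b (-0.66), which regulates cohesin. Stag2, Pds5b and Rad21, the cleaved subunit of cohesin, fell by 0.36, 0.43 and 0.22 in cortex, and Hdac8 and Rad21 by 0.34 and 0.20 in midbrain. The list's median was -0.30, -0.20 and -0.10 in cerebellum, cortex and midbrain.

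Of 14 genes for DNA methylation and silencing, 4 fell and 1 rose in cKO cerebellum, 5 fell and 1 rose in cortex, and 2 fell and 1 rose in midbrain. Tet1 and Tet2, enzymes that oxidise methylated cytosine, fell in all 3 regions, by 1.29 and 0.69 in cerebellum, 0.68 and 0.59 in cortex and 0.44 and 0.36 in midbrain. Uhrf1, which maintains methylation in dividing cells, rose by 1.36 in cerebellum, 0.85 in cortex and 0.79 in midbrain.

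Of 19 binding and signalling partners, 8 fell and 1 rose in cKO cerebellum, 2 fell and 1 rose in cortex, and none fell and 1 rose in midbrain. The lowest p in cerebellum were those of Nlgn1 (-0.94), a postsynaptic adhesion protein, Marcks (-0.45), an actin-binding substrate of protein kinase C, and Wasf1 (-0.56), a subunit of the actin-regulating WAVE complex. In cortex Cyfip2, another WAVE subunit, fell by 0.37 and Nlgn1 by 0.29 while Rhoa, a small GTPase, rose by 0.21, and in midbrain Brk1, a WAVE subunit, rose by 0.20. Of 12 protocadherins outside the clusters, 5 fell in cKO cerebellum, 4 in cortex and 1 in midbrain, and none rose. Pcdh9 and Pcdh20 fell by 1.01 and 0.99 in cerebellum and by 0.56 and 0.52 in cortex, Pcdh20 fell by 0.49 in midbrain, and Pcdh1 fell by 0.94 in cerebellum.

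Genes on the chromosome beside the clusters had a median of -0.04 in cerebellum over 12 tested genes, of which 4 fell and 1 rose. Those that fell by lowest p were Pcdh1 (-0.94), Taf7 (-0.41), a general transcription factor gene between the beta and gamma clusters, and Rell2 (-0.43). In cortex Diaph1 fell by 0.29 and Hdac3 rose by 0.16, and in midbrain none of 11 was called.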

How the data were processed

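Polyadenylated RNA was made into unstranded NEBNext Ultra libraries and sequenced in pairs on a NovaSeq, per the labels' protocols. STAR, Salmon, DESeq2 and mm10 appear in the submitters' processing notes, with no versions or roles. The deposited table is named raw counts, but the authors had normalised it, so its unit is a signal. Totals were 21.5 to 28.8 M, the value of 1 read differed 10.9-fold between libraries, and 87.6% of values of up to 4.5 such reads were whole multiples of it to within 0.1. No count model was used. Of 41 libraries, 2 were left out because title and tissue label disagree on the region, as were 26 entries named as dates (at most 0.351% of a total).

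Each region was fitted alone with limma 3.58.1 (R 4.3.3; trend, robust) on log2(value + 1), with labelled sex as covariate, for genes at 10 or more in as many libraries as the smaller group. Benjamini-Hochberg adjusted p under 0.05 over all genes made a call. Differences of effect and floxed regions were contrasts of 1 fit of all 6 groups. Regions come from the same animals (consensus correlation 0.19), so an animal block was tried. Scripts were tested on simulated data. Named members were the C-type isoforms, up to 8 called by lowest p per region, the 2 of highest mean per cluster, up to 6 per direction in floxed contrasts, up to 4 per difference and up to 3 per list. Members and lists were chosen with earlier results of these data known. RefSeq gave coordinates and GENCODE vM21 exon lengths. Python 3.11.15, numpy 2.4.6, pandas 2.3.3 and matplotlib 3.10.9 made tables and plots.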

Additional observations from a re-analysis of the deposited data

Results flagged for a closer look

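Among 100 groups of members checked for a library far from the others, 5 were flagged, by a limit that chance passes in about 1 of 20 groups. Pcdhga11 had 657 normalised reads in the library labelled floxed cerebellum 6, where the other floxed cerebella had 1247 to 1607. In floxed midbrain, library 2 had 135 reads of Pcdhac1 (others 168 to 180.1) and 234 of Pcdhb20 (others 308 to 333). In cKO midbrain, library 4 had 1239 reads of Pcdhac2 (others 1457 to 1602) and 693 of Pcdhgc4 (others 1025 to 1269.7).

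The cKO effect differed between regions for 24 members in cerebellum minus midbrain and for 7 in cerebellum minus cortex, by limma contrasts, where 12% and 8.09% of all genes were called lower. The count of 7 was 4 to 18 on leaving out 1 library, where 11.5% to 20.1% of all genes were called in either direction. Against midbrain the leading differences on the log2 scale were -1.03 for Pcdhgc3, -1.28 for Pcdhac2, -0.77 for Pcdhga2 and -0.77 for Pcdhgc4. Against cortex they were -1.06 for Pcdhac2, -0.73 for Pcdhga2, -0.82 for Pcdhgc3 and -1.04 for Pcdha12.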

How the results depend on the processing

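Counts are members called in either direction. The share of all genes called moved as well, so a count alone is not a result about the members. Leaving out 1 library gave 15.9% to 23.0% of all genes in cortex, 12.3% to 18.6% in midbrain and 30.4% to 42.1% in cerebellum. It gave 11.5% to 20.1% in cerebellum minus cortex and 19.0% to 28.8% in cerebellum minus midbrain. For floxed regions it gave 21.6% to 28.8% in midbrain minus cortex. In cortex the 13 calls became 4 with no sex covariate, 2 with Xist in place of sex, 4 with depth as covariate, 2 in the fit of all 6 groups, 8 without the libraries in which Xist and Y-linked genes contradict the sex label and 4 with the replicate block, with 4 to 14 on leaving out 1 library. In midbrain the 1 call became 2 with library totals, 3 with median of ratios, 3 with no sex covariate, 7 with library weights, 0 with depth, 0 in the fit of all 6 groups, 3 without the sex-conflict libraries and 3 with the replicate block, with 0 to 5 on leaving out 1 library. In cerebellum the 38 calls became 20 with depth and 24 with the replicate block, with 26 to 43 on leaving out 1 library; the 2 fits without cKO cerebellum 4 and 7 were added after seeing the data. The replicate numbers do not pair cKO with floxed animals (r from -0.28 to 0.17). In cerebellum minus cortex the 7 calls became 4 with library totals, 15 with weights, 12 without the sex-conflict libraries and 16 with the animal as replicate block, with 4 to 18 on leaving out 1 library; cerebellum minus midbrain ranged from 15 to 32. For floxed midbrain minus cortex the 7 became 4 with library totals, 21 with weights, 11 with the animal as replicate block and 20 with only the 2 floxed groups, with 4 to 11 on leaving out 1 library. Floxed cerebellum minus cortex and minus midbrain gave 35 and 30 with weights, in place of 23 and 19, with 22 to 28 and 15 to 21 on leaving out 1 library. The latter fits called 60.3% to 64.8% and 60.5% to 64.6% of all genes. The sign turned only for values near 0. Pcdhgc3 in cortex was 0.061 with weights. Pcdha12 in cortex was 0.019 with library totals, 0.013 with weights, 0.017 with the replicate block and -0.13 to 0.11 on leaving out 1 library. Pcdha12 in midbrain was 0.016 with weights and -0.060 to 0.039 on leaving out 1 library. Pcdhgc5 in cerebellum was -0.032 to 0.20 on leaving out 1 library, below 0 without cKO cerebellum 2 or 5. The causes were not tested.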

Other observations

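The 2 libraries in which title and tissue label disagree on the region were placed in no group. The floxed one had 4813 normalised reads over the alpha cluster, 3869.6 over beta and 24941 over gamma, with 8539.7 of Pcdhgc5, 3908 of Pcdhgc3, 1697 of Pcdhac2 and 1191 of Yy1. The cKO one had 4173 over alpha, 3253 over beta and 24449.5 over gamma, with 6879.8 of Pcdhgc5, 5095 of Pcdhgc3, 1483 of Pcdhac2 and 1063 of Yy1.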
